A study of Mus musculus with 653 samples.

Results

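The subject is a list of 46 genes of DNA replication, the set that a cell needs to license, fire and copy its origins in S phase. They were chosen by name from the 54195 genes of the raw count table, and were grouped by role into origin licensing (11 genes), origin firing (9), polymerases (6), clamp and fork (11), nucleotide supply (5) and chromatin with histone mRNA (4). Of the 46 genes, 44 had reads, whereas Cdt1, which loads the Mcm helicase, and Gins2, a subunit of the active helicase, were listed at 0 in all 653 cells. Why these genes had no reads was not tested, so a 0 is not taken to mean that they were silent. Each cell was sequenced on its own by Smart-seq2, a full-length protocol that adds no molecular identifiers. The embryos came from Lgr5-EGFP-IRES-creERT2 males on a C57BL/6 background and MF1 females, so that GFP reports transcription at the Lgr5 locus. Livers were taken at E10.5 or E13.5, and cells were sorted as Liv2+ CD31- CD45- bulk cells or as Lgr5-GFP+ cells. Of E10.5 bulk cells, 83 were in library pools 1 and 2 and 120 in pools 3, 4 and 5, and of E13.5 bulk cells 68 and 91. The Lgr5-GFP+ cells of E10.5 comprised 53 Afp, 66 Pdgfra, 89 unmarked and 3 mixed cells, by the markers described further on, and those of E13.5 numbered 80. The labels name no animal, litter or sort for a cell, so each of these 4 groups is 1 sample. No p-value was therefore computed, and intervals and ranges over library pools stand in its place.

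As background, origins are licensed in G1, when the origin recognition complex, Cdc6 and Cdt1 load a ring of Mcm2 to Mcm7 onto DNA. Cyclin E and the Cdc7 and Dbf4 kinase then fire the origins by recruiting Cdc45 and the Gins complex, and polymerases copy the strands with the Pcna clamp, its Rfc loader and the Rpa single-strand binding proteins. Many of these genes are induced together by E2F factors at the G1 to S transition. In the fetal liver, hepatoblasts, mesenchyme and erythroid precursors divide side by side, and erythroid precursors are known for rapid cycles.

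Promoters of the list are shown because several of its members carry letters that E2F factors are known to bind. The RefSeq promoter table (GRCm38.p6, 250 bases before to 50 after a start) held 42 promoters for 36 of the genes. The letters TTTCCCGC, TTTGGCGC, TTTCGCGC or TTTGCCGC, on either strand, were found in 12 of the 42 promoters (28.6%), against 2.26% of all 32851 promoters. CCAAT stood in 54.8% of the listed promoters and in 37.4% of all, and TTTGAA, the letters of the CHR element of mitotic genes, in 14.3% and 17.9%. The 12 genes with an E2F-type match were Cdc6, Cdt1, Lig1, Mcm3, Mcm5, Mcm6, Mcm7, Orc1, Pola1, Pold1, Rfc3 and Uhrf1. Mcm3, Mcm5, Mcm6, Mcm7 and Rfc3 held more than 1 match. In the Mcm5 and Mcm6 windows another match overlaps the one marked and stays partly in lower case. The windows below are 5′ to 3′ along the gene, with 1 match in capitals, for the 7 of the 12 genes that were higher in Klf1 than in Pdgfra cells. They lie at chr11:98908002-98908031 on the plus strand for Cdc6, chr1:20820275-20820304 on the minus strand for Mcm3, chr8:75109349-75109378 on the plus strand for Mcm5, chr1:128359797-128359826 on the minus strand for Mcm6, chr5:138172030-138172059 on the minus strand for Mcm7, chr7:44548766-44548795 on the minus strand for Pold1, and chr17:56304117-56304146 on the plus strand for Uhrf1.
Cdc6: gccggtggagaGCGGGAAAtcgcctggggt
Mcm3: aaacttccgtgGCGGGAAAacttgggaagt
Mcm5: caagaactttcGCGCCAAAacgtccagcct
Mcm6: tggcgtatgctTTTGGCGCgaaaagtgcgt
Mcm7: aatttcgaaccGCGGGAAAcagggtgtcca
Pold1: cacggcggcgtatcttgtgGCGGGAAAagc
Uhrf1: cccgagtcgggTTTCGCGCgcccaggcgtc

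Cells were placed in lineages by more than 10 reads of exactly 1 of 3 markers: Afp, made by hepatoblasts, Klf1, an erythroid transcription factor, and Pdgfra, a receptor of mesenchymal cells. At E10.5 this gave 59 Afp cells, 32 Klf1 cells and 66 Lgr5-GFP+ and 76 bulk Pdgfra cells, with 89 Lgr5-GFP+ and 84 bulk cells that had none of the 3 markers and 8 that had more than 1. At E13.5 it gave 2 Afp and 8 Pdgfra cells, 47 Klf1 cells in pools 1 and 2 and 81 in the others, with 99 unmarked and 2 mixed cells. The labels call every cell a liver hepatoblast, but the markers did not bear this out for most of them. The 10 hepatoblast markers summed to 20317 RPM (reads per 1000000 reads on all genes) in E10.5 Afp cells, 264 RPM in Pdgfra cells and 14.6 RPM in Klf1 cells. The 9 erythroid markers summed to 2998 RPM in E10.5 Klf1 cells, and 8 mesenchyme markers to 4621 RPM in E10.5 Pdgfra cells. Each sum includes the marker by which the cells were picked, whose level was thus set by the rule. Afp itself took 2276 RPM in E10.5 Afp cells, Klf1 975 RPM in E10.5 Klf1 cells and Pdgfra 335 RPM in E10.5 Pdgfra cells. Lineage and sort were not balanced. All 32 Klf1 cells of E10.5 were bulk cells, and 53 of the 59 Afp cells were Lgr5-GFP+.

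The 653 cells were sequenced in 5 library pools, which served as batches, and pools 1 and 2 stood apart from pools 3, 4 and 5. The labels do not say whether pools also differ in embryos or sorts. The paper describes batch effects between its biological replicates, so differences between pools need not be technical alone. Reads on genes per cell ran from 463347 to 2279700, and their medians were close (1197960 reads in pools 1 and 2 and 1182210 in the others). The median number of genes detected per cell was 4495 in pools 1 and 2 and 6447 in pools 3, 4 and 5. Of all values of listed genes, 33.1% were 1 to 10 reads in pools 1 and 2 against 10.8% in the others, and 39.7% against 23.6% were 0. Of 365 pairs of sequencing indices, 230 were used in more than 1 pool. Levels were summed over cells and were closer between pools: the listed genes together took 8602 to 9461 RPM in the 5 pools.

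Per kilobase of exon, the listed genes spanned a wide range. Over all cells, Tipin, a fork protection factor, reached 268 RPKM (RPM per kilobase), and Dut, which removes dUTP, reached 260. Gmnn, the inhibitor of Cdt1, stood at 225 RPKM, Rfc4 at 217, Rrm2, the regulated subunit of ribonucleotide reductase, at 161.5, Gins4 at 140.6 and Pcna at 133.8. The large polymerase subunits were low, with Pole at 7.2 RPKM in E10.5 Klf1 cells and 4.2 in Pdgfra cells. Orc1 had 4.93 RPM over all cells and more than 10 reads in 5.51% of them. Fen1, the flap endonuclease, had 8.77 RPM, and 84.2% of its exon bases are shared with exons of Gm10143 or Tmem258, so its reads cannot be fully assigned. The same limit holds for 52.5% of the exon bases of Chaf1a, which overlap Ubxn6, and 67.3% of those of Gins2, which overlap Gse1. The 10 most abundant genes made up 45.2% of the summed reads, with Dut alone at 6.95%.

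**Figure D1:**
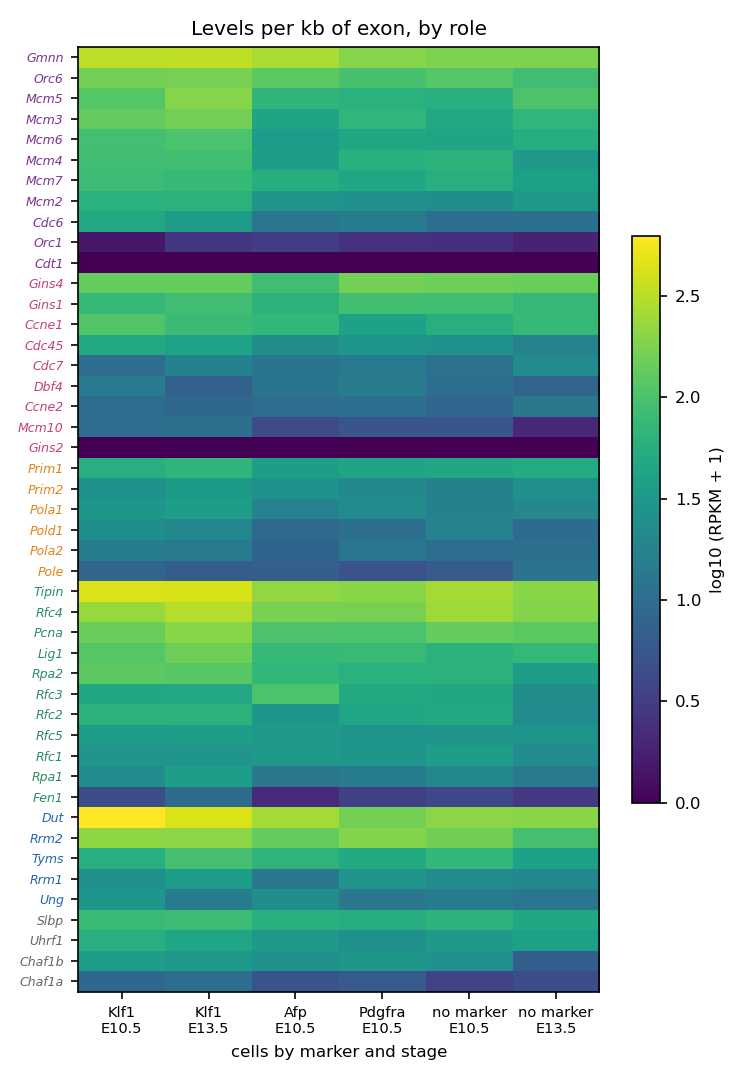
Heat map of the level of each of the 46 genes, as log10 of RPKM plus 1, in 6 sets of cells by marker and stage (columns), with gene names coloured by role. Dut and Tipin are brightest in the Klf1 columns, and Cdt1 and Gins2 are listed at 0 throughout.

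The summed level of the list was higher in Klf1 cells of either stage than in Afp and Pdgfra cells of E10.5. At E13.5 the 2 Afp and 8 Pdgfra cells were too few for a comparison. It came to 12742 RPM in the 32 Klf1 cells of E10.5, with 12910 to 13408 RPM in the 3 pools that held at least 5 such cells. At E13.5 the Klf1 cells had 13288 RPM (12466 to 14860 over 5 pools). The 59 Afp cells had 7860 RPM (7691 to 8730 over 4 pools), and the Pdgfra cells of E10.5 had 7792 RPM (7165 to 8370 over 5 pools). The pool ranges of Klf1 cells thus lay above those of Afp and Pdgfra cells, which overlapped each other. Unmarked cells had 8107 RPM at E10.5 and 7137 RPM at E13.5, where the pools ran from 3157 to 9925 RPM.

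Among single cells, those with Klf1 also reached high levels most often. A summed level of at least 10000 RPM, a limit set after the data had been seen because it is less tied to the pool, was reached by 28 of 32 Klf1 cells at E10.5 (87.5%, exact interval 71.01 to 96.5) and by 78.1% at E13.5 (69.96 to 84.9). In pools the share ran from 78.6 to 100% and from 64.7 to 86.96%. Among Afp cells 16 of 59 reached it (27.1%, 16.4 to 40.3), and among Pdgfra cells of E10.5 21.8% (15.3 to 29.5), with 20 to 33.3% and 15 to 34.6% in pools. Of unmarked cells 26.6% reached it at E10.5, with 18.5 to 36.7% in pools. At E13.5 28 of 99 (28.3%) did, with 0 to 51.2% in pools, so that share depended strongly on the pool. The intervals cover counting error only, and 92 of the 653 cells lay within 10% of the limit. At 8000 RPM the shares were 96.9% and 88.3% in Klf1 cells, 47.5% in Afp cells and 38.03% in Pdgfra cells. At 12000 RPM they were 68.8%, 57.03%, 8.47% and 12.7%, so that Afp and Pdgfra cells changed order with the limit whereas Klf1 cells did not.

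**Figure D2:**
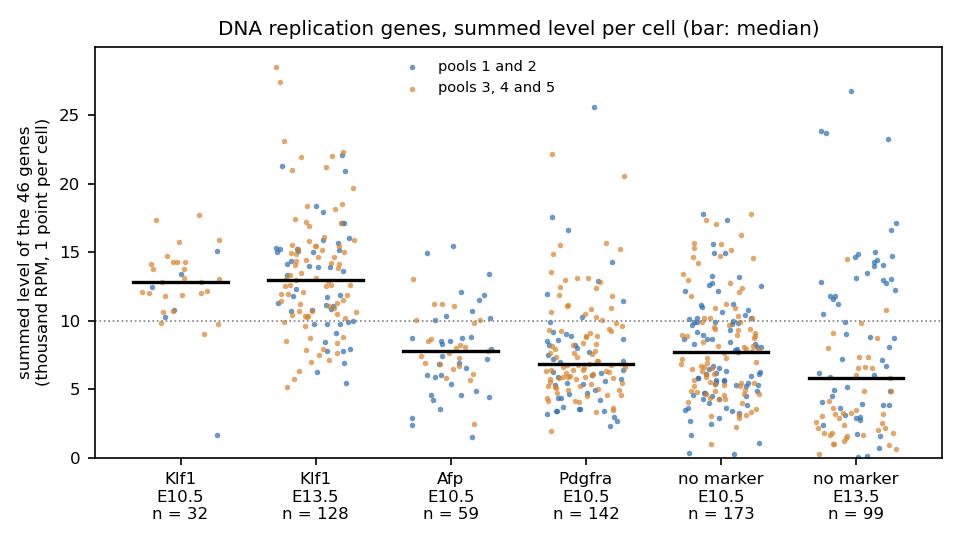
Summed level of the 46 genes per cell, in units of 1000 RPM, by marker and stage. Each point is 1 cell, coloured by pool set, the bar is the median and the dotted line marks 10000 RPM, which 28 of 32 Klf1 cells of E10.5 reached against 21.8% of Pdgfra cells.

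A count of genes gave another picture, because it followed the pool. A cell was called replication-high when at least 23 of the 46 genes had more than 10 reads, which was the case in 329 of 653 cells (50.4%), with 73 cells at 20 to 25 genes and so near the limit. By lineage, 29 of 32 Klf1 cells of E10.5 were replication-high (90.6%), 70.3% of Klf1 cells of E13.5, 25 of 59 Afp cells (42.4%, exact interval 29.6 to 55.9) and 59.9% of Pdgfra cells. By pool the share over all cells ran from 6.04% to 86.8%, and 310 of the 329 replication-high cells lay in pools 3, 4 and 5. Within those pools 26 of 26 and 81 of 81 Klf1 cells were replication-high, as were 23 of 24 Afp cells and 83 of 93 Pdgfra cells (89.2%), against 11 of 43 unmarked cells of E13.5 (25.6%). In pools 1 and 2 the share was 3 of 6 and 9 of 47 in Klf1 cells, 2 of 35 in Afp cells and 2 of 49 in Pdgfra cells. The lower overall share of Afp cells than of Pdgfra cells came with 35 of the 59 Afp cells lying in pools 1 and 2. Across the cells of a lineage, the number of genes over 10 reads had a Spearman rho of 0.76 to 0.86 with the number of detected genes and of -0.11 to 0.14 with reads, whereas the summed level had a rho of -0.11 to 0.14 with detected genes. These correlations are descriptions over cells that share pools.

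**Figure D3:**
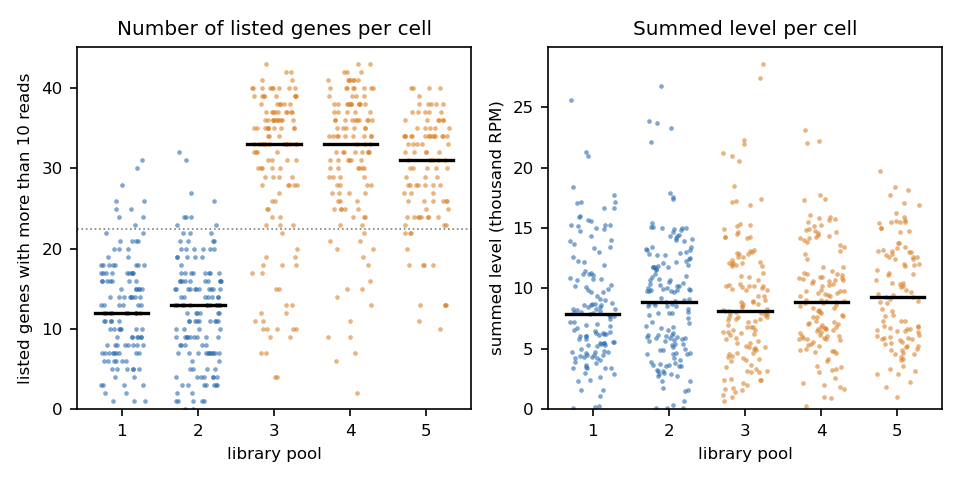
Number of listed genes with more than 10 reads per cell (left, dotted line at the replication-high limit) and summed level per cell in units of 1000 RPM (right), by library pool, with 1 point per cell and the median as a bar. The number splits pools 1 and 2 (medians 12 and 13 genes) from pools 3, 4 and 5 (33, 33 and 31), whereas the summed levels overlap.

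Genes that license origins were higher in Klf1 than in Pdgfra cells at E10.5. A gene was called when the RPM of summed cells, with 1 RPM added, differed by 1.5-fold or more and reached 10 RPM in 1 arm. Of 42 listed genes at that level, 19 were called higher and 0 lower (45.2% higher), against 27.7% higher and 40.6% lower over all 10054 genes tested. The median log2 ratio was 0.54 for the list and -0.20 for all genes. Of the 19 genes, 17 were higher in each of pools 3, 4 and 5, where 18.2% of all genes met both conditions. Within bulk cells alone (32 against 76 cells), 17 were higher and 1 lower, against 29.3% and 40.7% of all genes. In pools 1 and 2, where only 6 Klf1 cells lay, 18 were higher and 14 lower, against 27.2% and 58.8% of all genes, and the median log2 ratio was 0.19 for the list and -1.83 for all genes.

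By role, 8 of the 9 licensing genes tested were higher, with a median log2 ratio of 0.89. Cdc6, the Mcm loader, stood at 247 RPM in Klf1 cells (lowest 0, median 140.96 and highest 1641 RPM in single cells) and at 74.02 RPM in Pdgfra cells (0, 0 and 2431 RPM), a log2 ratio of 1.72. It passed 10 reads in 78.1% of Klf1 cells and 25.4% of Pdgfra cells, but 1 Klf1 cell held 25.2% of the Klf1 reads. Mcm2, a helicase subunit, had 414 RPM against 175.4 RPM (log2 1.23), and passed 10 reads in 96.9% and 56.3% of cells. Mcm3, Mcm5, Mcm6 and Mcm7, of the same ring, had log2 ratios of 0.97, 0.89, 0.96 and 0.79, the last with pools on both sides of 0. Mcm4 (0.56) fell short of the limit. Gmnn, the most abundant licensing gene per length, had 483 RPM against 281 RPM.

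Genes that fire origins did not move as a block. Ccne1, the cyclin E1 that drives entry into S phase, had 286 RPM against 103.5 RPM (log2 1.45), and Mcm10 and Cdc45, which join the helicase, were also higher (0.97 and 0.72). Cdc7, the firing kinase, had 37.2 RPM against 54.5 RPM (-0.54), its partner Dbf4 112.1 RPM against 120.4 RPM, and Gins1 and Gins4 had log2 ratios of -0.28 and -0.25. None of these 4 was called. The median of the 8 firing genes was -0.08, which combined -2.79 in pools 1 and 2 with 0.17 in pools 3, 4 and 5. Only 6 Klf1 cells lay in pools 1 and 2, where 1 firing gene was higher and 5 lower. In pools 3, 4 and 5, 2 were higher and 0 lower.

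Dut had the largest difference of the list. It stood at 1507 RPM in Klf1 cells (lowest 2.58, median 1497 and highest 2458 RPM in single cells) and 395 RPM in Pdgfra cells (0, 301 and 2990 RPM), a log2 ratio of 1.93, with 1.93 to 2.30 in pools. The single-cell ranges overlapped. Ung, which excises uracil from DNA, had 157.3 RPM against 64.1 RPM (log2 1.28). The other genes of nucleotide supply were not called: Rrm2 had 584 RPM against 524 RPM, and Rrm1, the large subunit of the reductase, had 266 RPM against 309 RPM. Tipin had 837 RPM against 367 RPM (log2 1.19) and passed 10 reads in all 32 Klf1 cells and in 72.5% of Pdgfra cells. Rpa2 (1.02) and Rpa1 (0.63) were called among the fork genes, whereas Pcna (350 RPM against 242 RPM) and the 5 Rfc genes were not. Pold1 and Pole, the catalytic subunits of polymerases delta and epsilon, were called (1.27 and 0.78), the latter with pools from -0.43 to 3.08. Of the 6 polymerase genes, 5 were higher and 0 lower in pools 3, 4 and 5, against 0 and 4 in pools 1 and 2. Uhrf1, which guides DNA methylation after replication, was called at 1.20. Of the 10 genes tested with E2F-type letters in the promoter, 7 were called and their median log2 ratio was 0.93. Of the 23 with a promoter without them, 9 were called and the median was 0.52. Of the 9 tested genes for which no promoter was held, 3 were called and the median was 0.53. Most of the 7 were licensing genes (Cdc6, Mcm3, Mcm5, Mcm6 and Mcm7), and the part of the letters apart from role was not tested.

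**Figure D4:**
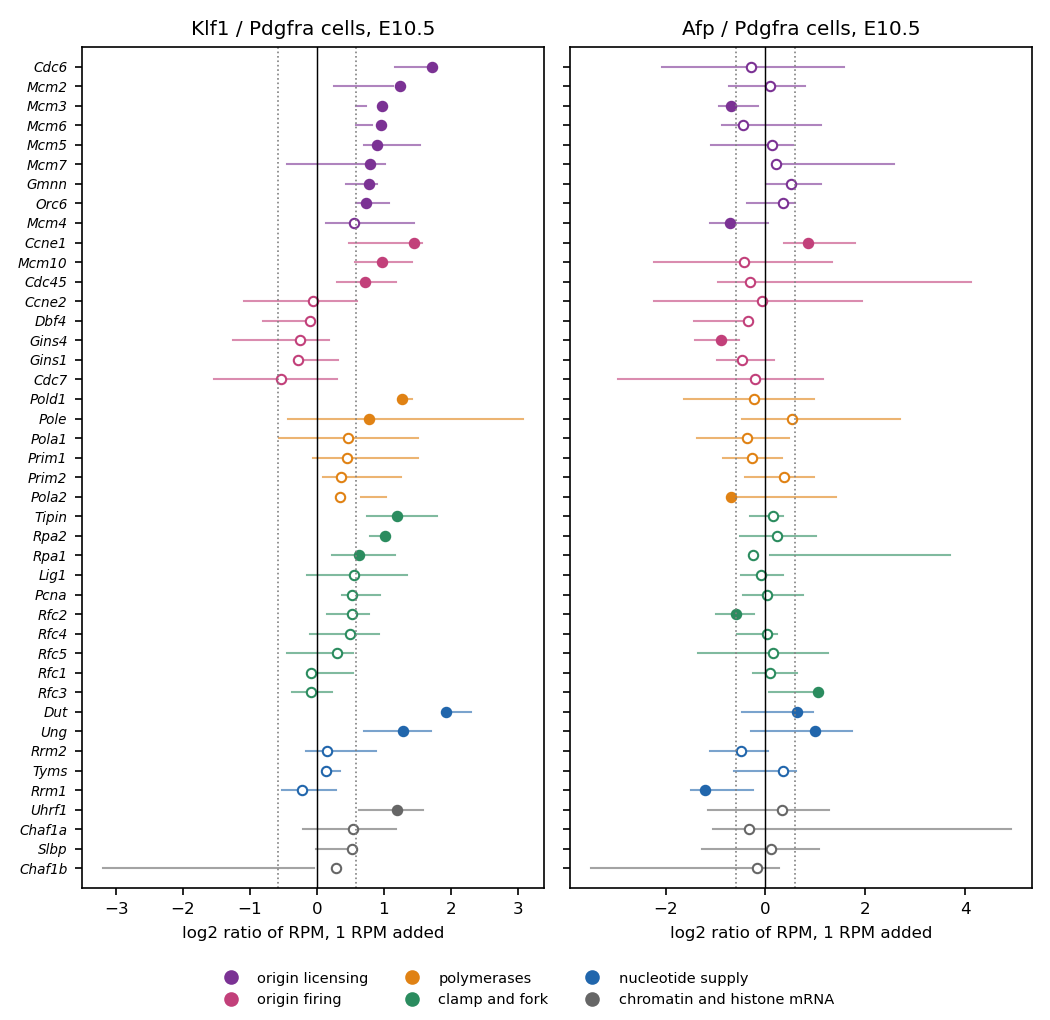
Log2 ratio of RPM, with 1 RPM added, of each of the 42 genes tested in Klf1 against Pdgfra cells (left) and Afp against Pdgfra cells (right) at E10.5. Points pool all cells (filled when called), lines span the pools with at least 5 cells in both arms, colours give the role and dotted lines mark 1.5-fold, and 19 genes are filled on the right side of the left panel against 4 in the right panel.

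Other lists set this beside the rest of the cycle. Of 45 further replication genes tested, 23 were higher and 3 lower in Klf1 than in Pdgfra cells, with a median log2 ratio of 0.59. Examples are Dna2, a nuclease of Okazaki fragments, with 95.6 RPM against 23.8 RPM, and Orc2, of the origin recognition complex, with 123.5 RPM against 40.1 RPM. Of 25 mitotic genes, 1 was higher and 9 lower (median -0.40), and their sum was 4943 RPM in Klf1 cells and 6181 RPM in Pdgfra cells. Over all 10054 genes tested, 27.7% were higher and 40.6% lower, with a median log2 ratio of -0.20. Mitotic genes were thus not called lower more often than genes at large. Of 9 genes that restrain the cycle, 1 was higher and 6 lower. Cdkn1c, which inhibits cyclin-dependent kinases, had 47.8 RPM in Klf1 and 662 RPM in Pdgfra cells.

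Afp and Pdgfra cells of E10.5 differed in few listed genes, and the balance of these depended on the scaling. Of 42 genes, 4 were higher and 6 lower in Afp cells, against 24.6% and 38% of 10187 genes, with a median log2 ratio of -0.08. With DESeq2 size factors it was 7 higher, 2 lower and a median of 0.14, and with edgeR TMM factors 6 higher, 2 lower and 0.11, while the median of all genes moved from -0.20 to 0.05 and 0.02. Within Lgr5-GFP+ cells alone 7 were higher and 4 lower, against 26.4% and 38.1% of all genes. Rfc3, a clamp loader subunit, had 364 RPM in Afp cells (lowest 0, median 126.8 and highest 2495 RPM in single cells) and 175.5 RPM in Pdgfra cells (0, 87.01 and 1151 RPM), a log2 ratio of 1.05. Its pools ran from 0.07 to 1.03. Rrm1 had 132.6 RPM (0, 76.1 and 800 RPM) against 309 RPM (0, 169.3 and 2936 RPM), a log2 ratio of -1.22, and was lower in each of the 4 pools. Gins4 (-0.89), Mcm3 (-0.69) and Rfc2 (-0.59) were also lower in every pool. Of 25 mitotic genes 0 were higher and 19 lower in Afp cells, with sums of 3495 RPM and 6181 RPM.

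Against Afp cells, Klf1 cells had 24 of 42 genes higher and 1 lower, beside 32.5% higher and 33.5% lower of 9388 genes, and 14 were higher in each of pools 3, 4 and 5, where 17% of all genes met both conditions. In pools 1 and 2, with 6 Klf1 cells, 15 were higher and 16 lower, against 27.7% and 55.6% of all genes, and the medians were 0.46 for the list and -1.21 for all genes. Over all pools the median log2 ratio was 0.65 for the list and 0.02 for all genes. The list was led by Cdc6 (2.02, with pools from -0.39 to 1.84), Mcm3 (1.66), Pold1 (1.49), Mcm6 (1.40) and Mcm10 (1.40). Rfc3 was the gene called lower (-1.14). Mitotic genes were on the same side here, with 14 of 25 higher in Klf1 cells and 1 lower. This comparison shares its Klf1 cells, and its Afp cells, with those above.

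The summed level of the list was close between E10.5 and E13.5 in Klf1 cells. Of 43 genes 5 were higher and 2 lower at E13.5, against 20.2% and 23.7% of 8291 genes, and the median log2 ratio was 0.05 for the list and -0.04 for all genes. Mcm5 was at 453 RPM at E10.5 (lowest 1.80, median 499 and highest 1104 RPM in single cells) and 767 RPM at E13.5 (0, 621 and 4429 RPM), a log2 ratio of 0.76 with 0.22 to 0.97 in pools. Tyms, which makes dTMP, was at 338 and 561 RPM (0.73). Its ratios in the 3 pools compared were only 0.25 to 0.32, so that none of them reached 1.5-fold. Fen1 was at 8.78 and 21.1 RPM. Cdc7 (0.83) and Rpa1 (0.67) were called too, but their pools lay on both sides of 0. Ung was at 157.3 RPM at E10.5 and 76.7 RPM at E13.5 (-1.03) and was lower in each of the 3 pools, where 9.36% of all genes met both conditions, and Dbf4 was at 112.1 and 55.5 RPM (-1.001), with pools on both sides of 0. Dut was at 1507 and 1057 RPM, which did not reach the limit. Pools 1 and 2, with 6 Klf1 cells of E10.5, gave 22 genes higher and 9 lower, against 51.4% and 28.4% of all genes, with medians of 0.67 for the list and 0.69 for all genes. Over the same stages 6 of 9 erythroid markers were higher, among them Klf1, whose own reads had picked the cells. Gata1, Epor and Tal1 were not called. Whether the Klf1 cells of both stages were of the same kind was not tested, and these markers are not given by pool. Comparisons of stages within Afp and Pdgfra cells were not made, because E13.5 held fewer than 10 of each.

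Over all bulk cells, E13.5 was above E10.5 in 13 of 43 genes and below in 1, against 22.6% and 36.7% of 9992 genes, with a median log2 ratio of 0.42 for the list and -0.14 for all genes. With DESeq2 size factors 24 were higher and 0 lower, against 30.3% and 31.5% of all genes, whose median moved to 0.09. Within pools 3, 4 and 5 it was 9 higher and 2 lower (20.6% and 32.8% of all genes), and within pools 1 and 2 24 and 5 (30% and 43.7%). Licensing genes took 5 of the 13. The cells differed in kind: Klf1 cells were 15.8% of bulk cells at E10.5 and 78.6% at E13.5. Composition and change within a cell type cannot be told apart in this comparison.

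At E13.5 the listed genes were lower in Lgr5-GFP+ than in bulk cells, which were different cells by marker. Of 43 genes 1 was higher and 31 lower, against 40.6% and 29.4% of 10254 genes, the median log2 ratio was -1.08 for the list and 0.15 for all genes, and 16 genes were lower and 0 higher in all 5 pools, against 14% and 10.2% of all genes. All 9 licensing genes tested were lower. Mcm4 had 71.7 RPM against 296 RPM (-2.03), Mcm2 131.4 RPM against 432 RPM (-1.71) and Dut 359 RPM against 990 RPM (-1.46), and Rpa2 had a log2 ratio of -1.57. Only Cdc7 was called higher (104.6 RPM against 57.3 RPM), with pools from -4.81 to 1.85. The 8 firing genes had a median log2 ratio of -0.14, which combined 0.16 in pools 1 and 2 with -1.10 in pools 3, 4 and 5. Ccne1, at 206.2 and 202.5 RPM over all pools, had log2 ratios of 0.97 and -1.44 in the same order. Of the Lgr5-GFP+ cells 67 of 80 had none of the 3 markers, whereas 78.6% of bulk cells were Klf1 cells.

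The size of that difference changed with the pools. In pools 3, 4 and 5 0 genes were higher and 39 lower (38.8% and 31.2% of all genes), with a median log2 ratio of -1.46. In pools 1 and 2 5 were higher and 23 lower (41.4% and 36.9% of all genes), with -0.75. The unmarked Lgr5-GFP+ cells themselves differed: their summed level was 3281 RPM in the 31 cells of pools 3, 4 and 5 (lowest 240, median 2521 and highest 10789 RPM) and 8527 RPM in the 36 cells of pools 1 and 2 (56.8, 7984 and 17119 RPM). Markers moved with it. In pools 3, 4 and 5 the endothelial markers summed to 1475 RPM, the megakaryocyte markers to 3234 RPM, the leukocyte markers to 915 RPM, the mesenchyme markers to 1601 RPM and the hepatoblast markers to 61.2 RPM, against 51.6, 1455, 374, 5542 and 436 RPM in pools 1 and 2. The median cell of pools 3, 4 and 5 had 1572 RPM of endothelial, 18.3 RPM of megakaryocyte, 1.39 RPM of leukocyte and 3.54 RPM of mesenchyme markers, so that the last 3 sums came from a minority of cells. The median cell of pools 1 and 2 had 259.9 RPM of mesenchyme, 0.95 RPM of megakaryocyte and 0 RPM of leukocyte and of endothelial markers. Those sums, that of mesenchyme markers among them, thus also came mostly from a minority of cells. Genes that restrain the cycle summed to 1293 RPM and 4936 RPM in the same order. The part of cell type and of pool in the level of the list was not tested. The stages of Lgr5-GFP+ cells also differed with the pools. Over all pools 1 of 42 genes was higher and 14 lower at E13.5 (29.4% and 30.3% of 10807 genes), with 0 and 3 called in the same direction in all 5 pools (3.87% and 12.6% of all genes), in pools 3, 4 and 5 it was 1 and 28 (29.3% and 33.3%), and in pools 1 and 2 11 and 11 (32% and 40.3%).

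**Figure D5:**
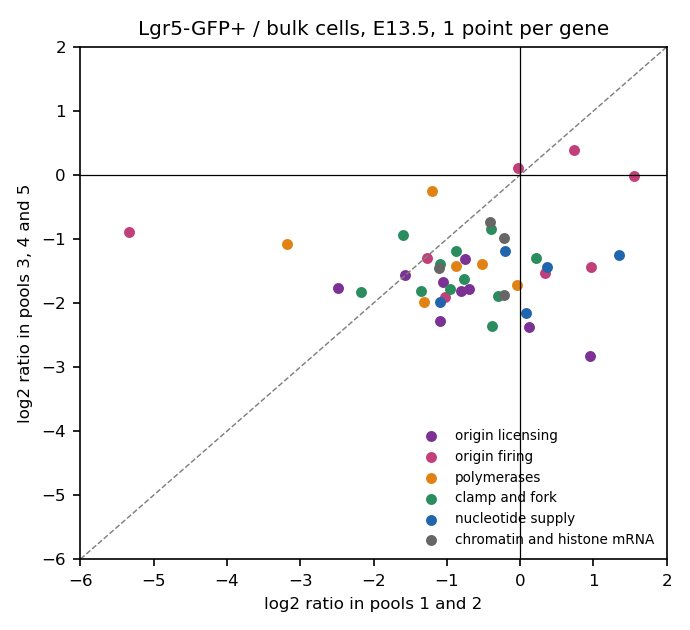
Log2 ratio of RPM of Lgr5-GFP+ to bulk cells at E13.5 for the 43 listed genes tested, in pools 1 and 2 (horizontal) and in pools 3, 4 and 5 (vertical), coloured by role with the line of equal ratios dashed. In pools 3, 4 and 5, 41 of the 43 points lie below 0, against 33 in pools 1 and 2.

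At E10.5 the sorts were closer. Over all cells 0 of 42 genes were higher and 6 lower in Lgr5-GFP+ cells, against 14.5% and 15.9% of 10210 genes, with a median log2 ratio of -0.32 for the list and -0.01 for all genes. Of the 6 genes 5 were lower in all 5 pools, where 3.73% of all genes met both conditions (4.06% in the higher direction, which 0 listed genes met). Within pools 1 and 2 it was 7 higher and 6 lower (28% and 30.3% of all genes), with a median of -0.06, and within pools 3, 4 and 5 0 and 11 (15.5% and 13%). This comparison sets 53 Afp and 0 Klf1 cells among the Lgr5-GFP+ cells against 6 and 32 in bulk.

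Pdgfra cells allowed the sorts to be compared within a lineage. In the 66 Lgr5-GFP+ Pdgfra cells 2 of 42 genes were higher and 8 lower than in the 76 bulk Pdgfra cells, against 20.9% and 21.8% of 9955 genes. The median log2 ratio was -0.30, with pool medians from -0.51 to 0.20, and 6 genes were lower in all 5 pools, where 3.08% of all genes met both conditions (2.51% in the higher direction). Ung had 16.6 RPM against 108.8 RPM (-2.64), Pola2, a subunit of the priming polymerase, 39.3 RPM against 146.4 RPM (-1.87), and Cdc6 30.9 RPM against 114.6 RPM (-1.86). For Cdc6 the share of cells with more than 10 reads was 24.2% and 26.3%, so the difference lay in a few cells with high levels (highest 499 RPM and 2431 RPM). Mcm4 (-0.83), Ccne2 (-0.63) and Rfc3 (-0.59) completed the 6. Rfc1 (0.78) and Cdc45 (0.59) were called higher, with pools on both sides of 0. Within pools 1 and 2, with 20 and 29 cells, 12 were higher and 15 lower (36% and 38% of all genes), and within pools 3, 4 and 5 0 and 10 (17.7% and 19%). Of 25 mitotic genes tested, 8 were higher and 0 lower in Lgr5-GFP+ Pdgfra cells, with sums of 7337 RPM and 5093 RPM and a median log2 ratio of 0.46. Mitotic counts of this and the earlier comparisons are not given by pool. Over all E10.5 cells, Lgr5-GFP+ and bulk cells had mitotic sums of 5885 and 6045 RPM in pools 1 and 2. In pools 3, 4 and 5 they had 5917 and 4183 RPM.

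Within a lineage most listed genes tended to be high in the same cells, though weakly. Cells of each lineage and pool were divided evenly by the summed level of the other 45 genes, a division made within pools after the data had been seen. Of the 44 genes with reads, 33 were above 0 in log2 ratio of the upper to the lower cells in all 3 lineages and 0 were below 0 in all 3. That is 75% of the list, against 11.8% above 0 and 15% below 0 of 6821 genes outside it with at least 10 RPM in every lineage. The lineage medians were 0.64 in Afp, 0.44 in Klf1 and 0.74 in Pdgfra cells, against -0.01, -0.12 and 0.04 for the genes outside. Cdc6 led, with log2 ratios of 1.44, 1.09 and 3.201 in Afp, Klf1 and Pdgfra cells, and Rrm2 had 0.82, 1.20 and 1.34. Rpa2 (0.96, 0.85 and 1.17) and Pcna (0.61, 0.73 and 1.02) showed a like size in each lineage. Mcm7 (0.15, 0.25 and 0.23) had smaller ratios, Dut (0.51, 0.10 and 0.56) was lowest in Klf1 cells, and Rfc1 (0.37, 0.09 and -0.29) and Pola2 (-0.75, 0.22 and -0.18) had no common direction over the lineages. With cells of all pools divided by whether at least 22 of the other 45 genes passed 10 reads, the medians were 0.26 in Afp, 0.18 in Klf1 and 0.49 in Pdgfra cells, with 30, 27 and 34 of 44 genes above 0. Ranked within pools, single genes had a median Spearman rho with the sum of the others of 0.19 in Afp, 0.18 in Klf1 and 0.25 in Pdgfra cells. Rrm2 (mean 0.47), Slbp (0.41), which binds histone mRNA, and Pcna (0.39) were highest.

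Mitotic genes, known to peak later in the cycle, showed at most a weak inverse relation to the list, which depended on how cells were divided. Within pools, the summed level of the 26 mitotic genes had a rho with that of the list of -0.11 in Afp, -0.12 in Klf1 and -0.09 in Pdgfra cells. When cells were divided by the mitotic sum instead, 5 of 44 genes were above 0 in all 3 lineages (11.4%) and 14 were below 0 in all 3 (31.8%), against 13.1% and 14.3% of 6823 genes outside both lists. Ung, Mcm4, Slbp and Ccne1 were among the latter, with mean log2 ratios of -2.05, -0.91, -0.60 and -0.59. Gmnn (0.38), Dbf4 (0.55), Gins4 (1.11) and Rfc4 (0.21) were among the former. With cells of all pools divided by whether at least 13 mitotic genes passed 10 reads, which like the replication-high call counts genes, the median log2 ratios were -0.04 in Afp, 0.21 in Klf1 and -0.11 in Pdgfra cells. In Klf1 cells the sign of the median thus depended on how mitotic cells were set apart. Gmnn protein is known to be kept through G2.

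Outside the list, the genes whose levels followed it most closely across cells included several of replication. Among 4411 genes with more than 10 reads in at least 20% of the cells of each lineage, the median of the mean Spearman rho over the 3 lineages was 0.02. The 15 highest included Fbxo5 (0.35), which restrains the anaphase-promoting complex, Dek (0.35), a chromatin protein, Clspn (0.31), a checkpoint mediator, Stmn1 (0.28), Tmem14c (0.28), Hells (0.27), Dnajc9 (0.27), Exo1 (0.27), E2f4 (0.26), Rnaseh2a (0.26), Prdx2 (0.26), Snx3 (0.26) and Gm26623 (0.26). Clspn, Hells, Exo1 and Rnaseh2a belong to the list of further replication genes, and 0 of the 15 to the mitotic list. Tmem14c and Prdx2, which red cells use, owed their place to Klf1 cells (0.50 and 0.48), against 0.14 and 0.10 in Pdgfra cells. With ranks taken within pools, 11 of the 15 were again among the 15 highest, and Dek (0.37) and Fbxo5 (0.33) led. At the other end Malat1, a nuclear RNA, had a rho of -0.30.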

How the data were processed

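The authors aligned single-end Smart-seq2 reads (Nextera XT) to GRCm38.p6 with STAR (2.6.0c) and counted uniquely aligned reads per gene with Subread featureCounts (1.6.2). The deposited counts are raw and whole, and 0 sample columns were unused. The deposited normalised table held 2 of the 46 listed genes and was not used. The genes, lists and limits were chosen with earlier results of these data known. Symbols (54042 of 54195 IDs) and exon lengths came from GENCODE vM21, a later release than the annotation counted. Reads were summed over cells and divided by all reads (RPM). A fold of 1.5 with 1 RPM added and 10 RPM in 1 arm made a call, and pools with at least 5 cells in both arms were checked. Named genes were the 8 highest and 8 lowest ratios of a comparison and the most abundant gene of each role, others being called genes, and of the 15 genes most like the list some are not reported here. Intervals are 95% exact (Clopper-Pearson) and cover counting error only, since reads without molecular identifiers are not independent molecules. Cells cannot replace animals, so no test was run. Scripts used Python 3.11.15, numpy 2.4.6, pandas 2.3.3 and scipy 1.17.1, with edgeR 4.0.16 and DESeq2 1.42.0 (R 4.3.3) for scaling factors alone. Calls were also run on simulated cells with planted folds above the 1.5-fold limit and no difference between pools. That simulation cannot show how calls behave at the limit or across these pools.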

Additional observations from a re-analysis of the deposited data

How the results depend on the processing

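Reads were deep, but each stage and sort is 1 sample, so that differences between embryos were not measured. No paired analysis was possible because no result comes from a test and cells share no replicate number, so arms were compared within library pools instead. Of 450 recomputed main values, 374 stayed within their limits, and the cause of the other changes was not tested. The limit was a 1.5-fold change for a count and the exact interval for a share. For a median it was the standard deviation of the pool medians. That limit widens where pools disagree (0.65 for the stages of Lgr5-GFP+ cells), so the tally does not measure stability between pools. The 10000 RPM limit, the left-out pool sets, the restriction to cells with at least 5000 detected genes and the division within pools were chosen after seeing the data.

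With a fold of 2, 9 genes were higher in Klf1 than in Pdgfra cells and 12 than in Afp cells, 1 was lower in Afp than in Pdgfra cells, 1 was higher at E13.5 in Klf1 cells and 3 in bulk, and 4 were lower at E13.5 in Lgr5-GFP+ cells. Lgr5-GFP+ cells then had 2 genes lower than bulk at E10.5, and 3 within Pdgfra cells. DESeq2 size factors and TMM factors gave medians of 0.69 and 0.65 for Klf1 against Pdgfra cells and 0.14 and 0.11 for Afp against Pdgfra cells, each with 2 lower in the latter. TMM gave 0.53 for Klf1 against Afp cells, and DESeq2 24 higher for bulk stages. Lgr5-GFP+ cells alone gave a median of 0.11 for Afp against Pdgfra cells. Cells with at least 5000 detected genes gave 26 lower for Lgr5-GFP+ stages, and 13 lower for the sorts at E10.5, over all cells and within Pdgfra cells.

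Without pools 3, 4 and 5, Klf1 against Pdgfra cells had a median of 0.19, Afp against Pdgfra cells 13 lower, and Klf1 against Afp cells 15 higher and 16 lower with a median of 0.46, beside all-gene medians of -1.83, -0.12 and -1.21. Klf1 stages then had 22 higher (median 0.67, all genes 0.69), bulk stages 24 higher (0.75), and the sorts at E10.5 a median of -0.058, with 15 lower within Pdgfra cells. Without pools 1 and 2, Afp against Pdgfra cells had 3 lower, Lgr5-GFP+ stages 28 lower and the sorts at E10.5 11 lower. The replication-high share was then 100% in Klf1 cells of either stage, 95.8% in Afp, 89.2% in Pdgfra, and 84.3% and 25.6% in unmarked cells of E10.5 and E13.5, of which 4.65% of the latter reached 10000 RPM.

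A limit of 15 genes gave 92.97% in Klf1 cells of E13.5, 77.97% in Afp, 69.7% in Pdgfra, and 60.7% and 33.3% in unmarked cells. A limit of 30 gave 60.2% in Klf1 cells of E13.5, 37.3% in Pdgfra, and 28.9% and 3.03% in unmarked cells. At 12000 RPM the shares were 68.8% and 57.03% in Klf1 cells, 8.47% in Afp, 12.7% in Pdgfra and 16.8% in unmarked cells of E10.5. At 8000 RPM they were 96.9%, 88.3%, 47.5%, 38.03% and 46.8%.

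Leaving out 1 pool at a time moved the replication-high share to 32 to 88.5% in Afp cells, the highest without pool 2, to 61.2 to 85.7% in Klf1 cells of E13.5, 49.5 to 73.5% in Pdgfra cells and 34.3 to 63.03% in unmarked cells of E10.5. The share of unmarked E13.5 cells at 10000 RPM ran from 12.1 to 34.2%. Genes lower in Afp than in Pdgfra cells ran from 4 to 10, genes lower in Lgr5-GFP+ cells at E10.5 from 5 to 10, and genes higher at E13.5 in Klf1 cells from 3 to 7. Medians ran from 0.55 to 0.65 for Klf1 against Pdgfra and 0.52 to 0.72 for Klf1 against Afp cells.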
